A study of Mus musculus with 4 samples.

Results

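The genes that build the hair shaft and its inner sheath were read in the mouse lower eyelid. They comprised 51 genes whose symbol starts with Krtap and a digit, which encode keratin-associated proteins, and 18 entries for hair follicle keratins, 7 of the inner root sheath and 11 of the shaft, of which 2 lie over the same annotated gene. A gene counted if at least 1 of the 4 libraries listed it, and these 69 were among 15816 genes so listed. The tissue came from C57BL/6 mice, an inbred strain, labelled WT (wild type), with no treatment named. The old female library came from females of 2 years and the young female library from females of 3 months, and the old male and young male libraries came from males of the same ages, with 1 library per group. How many animals a library holds is not in the labels, and no difference between a pair of libraries has a replicate check. The excised lid holds skin with hair follicles, glands, conjunctiva, muscle and dermis, so that fewer cells of a type and less RNA per cell cannot be told apart.

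Keratins are filament proteins that assemble from pairs of an acidic (type I) and a basic (type II) chain. In the growing hair follicle, dividing matrix cells above the dermal papilla turn into concentric layers. The inner root sheath moulds the growing fibre and is later shed, while the cortex and cuticle harden into the shaft. Shaft keratins are rich in cysteine, and keratin-associated proteins surround their filaments and bind to them, partly through disulfide bonds. These small proteins, each made from a gene with a single exon, are sorted into high-sulfur, ultrahigh-sulfur and high glycine-tyrosine classes by their amino acids. Foxn1, Hoxc13 and Lef1 are transcription factors known to act on hair keratin genes or their promoters.

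Values are the RPKM deposited by the authors, a level scaled by gene length and library size. Log2 ratios were taken between values of log2(RPKM + 1), which understates ratios of low genes, and were analysed for the 12094 genes that averaged 1 RPKM or more across libraries. Of the 69 hair genes, 66 passed this filter. The other 3, Krtap9-5, Krtap31-1 and Krtap31-2, stayed under it and are described by value alone. Each library listed between 14797 and 15297 genes, and total base coverage was lowest in the old female library, at 3.16 gigabases, against 3.78 to 3.91 gigabases in the other libraries. The old female library stood apart in genes of other lid tissues. The 6 listed markers of differentiating epidermis summed to 71.6 RPKM there, against 1540.0 RPKM in young females. Their sum was 987 RPKM in the old male and 1371 RPKM in the young male library. Of the 6, Ivl was not lower in the old female library, with 44 RPKM against 43.3 RPKM in the young female library. In males Ivl had 25.4 RPKM at 2 years and 51 RPKM at 3 months. Krt2 also was not lower in the old female library, with 0.206 RPKM against 0.148 RPKM in the young female library. The 7 markers of meibomian lipid cells summed to 11278 RPKM in the old female library, against 3194 RPKM in young females. In males this sum was 5831 RPKM at 2 years and 7666 RPKM at 3 months. The 6 skeletal muscle markers summed to 1089.5 RPKM and the 6 fibroblast markers to 236 RPKM in the old female library, against 181 and 30.6 RPKM in the young female library. In males the muscle sum was 606 RPKM at 2 years and 220.5 RPKM at 3 months, and the fibroblast sum was 83.1 RPKM at 2 years and 35 RPKM at 3 months. The sum of the 5 conjunctival markers was 1634 RPKM in the old female and 7255 RPKM in the young female library. In males it was 6484 RPKM at 2 years and 4654 RPKM at 3 months. Of the 5, Muc5ac alone was higher in the old female library, with 457 RPKM against 200 RPKM in the young female library. Each RPKM is a share of its library, and the part of these differences in the results below was not tested.

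The hair genes lie in clusters, 30 on chromosome 11, 22 on chromosome 16, 9 on chromosome 15, 5 on chromosome 7 and 3 on chromosome 10. They were abundant in every library. Together they took 1.05% of all base coverage in the old male and 1.12% in the young male library. In females they took 0.961% at 2 years and 0.967% at 3 months. A total of 24 had a mean of at least 100 RPKM, and Krt71 ranked 51st of all listed genes by mean RPKM. Among the 66 analysed genes, 42 (63.6%) differed by less than 1.5-fold between their highest and lowest library, against 68.5% of all 12094 genes. In 8 of the 66, the highest library was at least 2 times the lowest, against 14.2% of all genes.

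The inner root sheath keratins held the highest levels among the keratins. Krt71 (chr15:101733949-101743097 on mm10), the main type II chain of all sheath layers in human follicles, had 837 RPKM in the old female and 773 RPKM in the young female library, and 975 RPKM in the old male and 1049 RPKM in the young male library. Its type I partner Krt25 (chr11:99315844-99322941 on mm10) had 694 RPKM in the old female and 549.8 RPKM in the young female library, and 759.8 RPKM in the old male and 772 RPKM in the young male library. Krt27, another type I sheath chain, had 431 RPKM in the old female and 540.0 RPKM in the young female library, and 538 RPKM in the old male and 580.0 RPKM in the young male library. Krt71 and Krt25 were lowest in the young female library, whereas Krt27 was lowest in the old female library. Krt28, also type I, had 102 RPKM in the old female and 76.3 RPKM in the young female library, and 105 RPKM in the old male and 107 RPKM in the young male library. Krt73, a type II chain of the sheath cuticle in human follicles, had 99.9 RPKM in the old female and 73.2 RPKM in the young female library, and 94.8 RPKM in the old male and 102 RPKM in the young male library. Krt72, another type II chain of that cuticle, had 57.8 RPKM in the old female and 78.9 RPKM in the young female library, and 77.5 RPKM in the old male and 88.6 RPKM in the young male library. Krt26, a type I chain known from the sheath cuticle in human follicles, was the lowest of the 7, with 33.7 RPKM in the old female and 47.7 RPKM in the young female library, and 41.8 RPKM in the old male and 52.2 RPKM in the young male library. Krt28 and Krt73 were lowest in the young female library, and Krt72 and Krt26 in the old female library. All 7 sheath keratins were highest in the young male library, against 11.6% of all genes, or 38% without the old female library.

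The 7 sheath keratins split by direction between the female libraries. Old over young in females, the log2 ratio was 0.44 for Krt73, 0.42 for Krt28, 0.34 for Krt25 and 0.11 for Krt71. It was -0.49 for Krt26, -0.44 for Krt72 and -0.32 for Krt27. The type I and the type II chains were thus each found on both sides of 0. In males, all 7 had log2 ratios of old over young below 0, between -0.31 and -0.02.

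The shaft keratins reached lower levels than the leading sheath keratins. Of the type I chains, Krt34, a chain of the late cortex in human hair, had 111 RPKM in the old female and 107 RPKM in the young female library, and 120.3 RPKM in the old male and 131 RPKM in the young male library. Krt31, a cortex keratin, had 102 RPKM in the old female and 90.8 RPKM in the young female library, and 94.6 RPKM in the old male and 107 RPKM in the young male library. Krt35, an early keratin of matrix and cuticle in human hair, had 95.7 RPKM in the old female and 69.3 RPKM in the young female library, and 92 RPKM in the old male and 93.4 RPKM in the young male library. All 3 were lowest in the young female library, and Krt35 was the one keratin of 18 that was highest in the old female library. Krt32, a cuticle keratin in human hair, had 25 RPKM in the old female and 24.7 RPKM in the young female library, and 26.6 RPKM in the old male and 27.6 RPKM in the young male library. Krt36 had 11.6 RPKM in the old female and 11.3 RPKM in the young female library, and 14 RPKM in the old male and 16 RPKM in the young male library. Between the highest and the lowest library, Krt32 differed least of all 18 keratins, by 1.12-fold.

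Of the type II shaft chains, Krt81, a cortex keratin in human hair, had 92.2 RPKM in the old female and 101 RPKM in the young female library, and 85.3 RPKM in the old male and 107 RPKM in the young male library. Krt86, a close relative of Krt81, had 87.3 RPKM in the old female and 83.5 RPKM in the young female library, and 89.7 RPKM in the old male and 104 RPKM in the young male library. Krt82, a cuticle keratin in human hair, had 14.3 RPKM in the old female and 12.4 RPKM in the young female library, and 14.7 RPKM in the old male and 16.5 RPKM in the young male library. All 3 were highest in the young male library. Krt84 (chr15:101525026-101532820 on mm10), known mainly from the tongue's filiform papillae, had 6.97 RPKM in the old female and 7.64 RPKM in the young female library, and 12 RPKM in the old male and 18.1 RPKM in the young male library. Both male libraries exceeded both female libraries for Krt84, and its highest library was 2.60 times its lowest, whereas that ratio was at most 1.55 for each of the other 17 keratins.

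The names of 2 of the type II entries do not match the annotation. The entry named Krt83 (chr15:101433102-101438804 on mm10) had 106 RPKM in the old female and 88.1 RPKM in the young female library, and 88.6 RPKM in the old male and 117 RPKM in the young male library. The entry named Krt85 (chr15:101431014-101431489 on mm10) had 71.1 RPKM in the old female and 68.2 RPKM in the young female library, and 70.9 RPKM in the old male and 79.2 RPKM in the young male library. Both lie over the gene that GENCODE M21 names Krt87, so neither value is taken as that of the gene now called by the name. The counts over 18 keratins below hold both entries. With the pair counted once, a choice made after the positions were seen, the young male library was highest for 16 of 17 and the young female library lowest for 12 of 17. Krt81 and Krt86 share 43.5% and 43.3% of their 50-base words with other annotated transcripts, and Krt31 and Krt34 share 28.1% and 33.1%. How reads that match several genes were counted is not stated, so the values of these genes are uncertain.

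**Figure D1:**
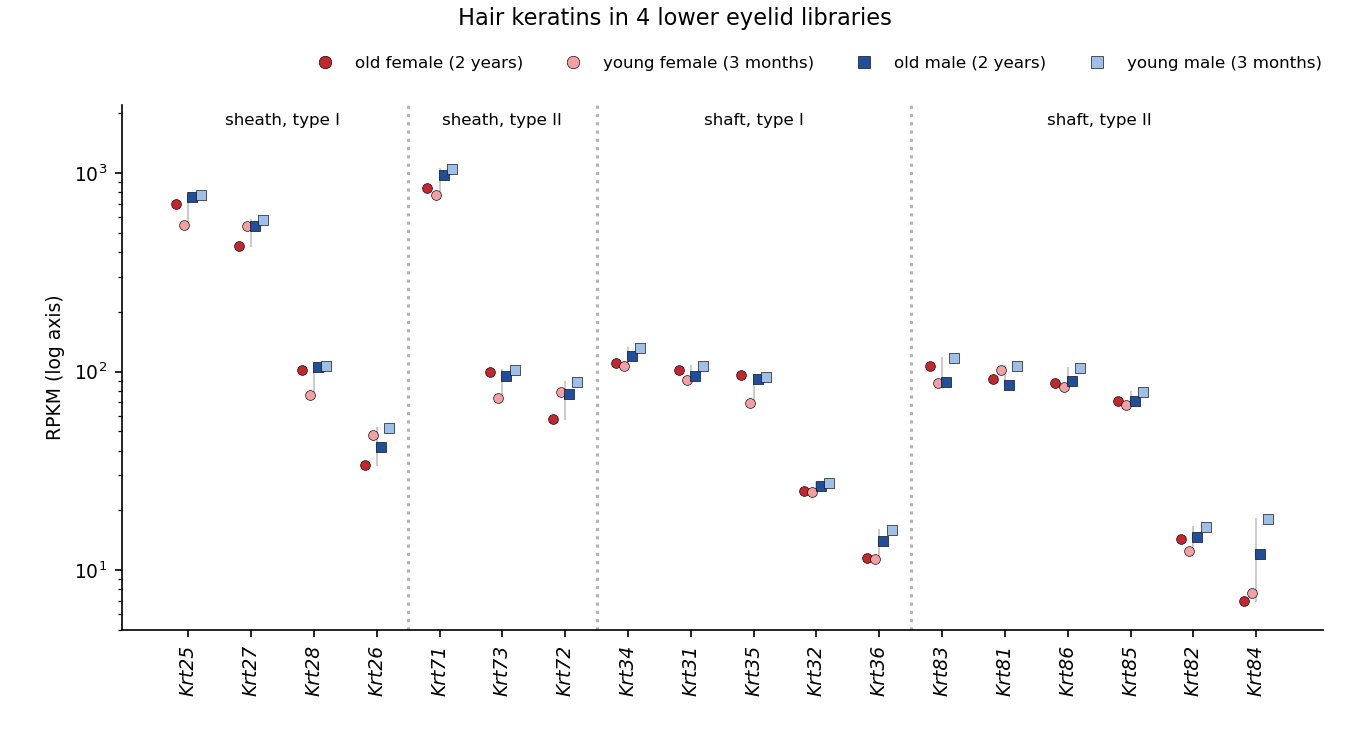
RPKM of the 18 hair keratin genes in the 4 lower eyelid libraries, on a log axis, with 1 point per library and a grey line from the lowest to the highest. The young male library is the highest for 17 of the 18, and the sheath keratins Krt71, Krt25 and Krt27 stand at 431 RPKM or more in every library.

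Across the 18 keratins, the young male library was highest for 17, against 11.6% of all genes, and the young female library was lowest for 13, against 35.3%. Without the old female library, the young male library was highest for 18 of 18, against 38% of all genes, and the young female library lowest for 14, against 37.6%. The plot of keratin levels shows this order within narrow ranges, since 17 of the 18 spanned at most 1.55-fold across the libraries.

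Promoter sequences are shown for chosen members. Krt71 is the most abundant keratin, and Krt31 and Krt34 are shaft keratins that differed little between libraries. Krtap19-3 and Krtap16-3 are from families that were highest in the young female library. Krtap6-1 and Krtap20-2 are genes at least 2-fold apart by age in females. Each sequence is the stretch of 250 bases before the transcription start, from RefSeq on GRCm38.p6, written on the gene's strand from 5′ to 3′. Capitals mark TATAAA on the gene's strand, CTTTGAAG (a form of the LEF1 binding element) on either strand, and the HOXC13 binding consensus on either strand.
Krt71: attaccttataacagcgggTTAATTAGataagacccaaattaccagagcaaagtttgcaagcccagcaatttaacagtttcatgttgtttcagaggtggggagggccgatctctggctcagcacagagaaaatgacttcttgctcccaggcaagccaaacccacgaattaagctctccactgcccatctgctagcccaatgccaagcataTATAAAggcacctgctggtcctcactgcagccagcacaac
Krt31: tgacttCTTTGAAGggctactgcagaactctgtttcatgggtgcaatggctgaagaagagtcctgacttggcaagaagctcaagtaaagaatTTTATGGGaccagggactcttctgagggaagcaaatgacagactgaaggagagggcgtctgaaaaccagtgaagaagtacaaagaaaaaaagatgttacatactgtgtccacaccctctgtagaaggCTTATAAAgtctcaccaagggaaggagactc
Krt34: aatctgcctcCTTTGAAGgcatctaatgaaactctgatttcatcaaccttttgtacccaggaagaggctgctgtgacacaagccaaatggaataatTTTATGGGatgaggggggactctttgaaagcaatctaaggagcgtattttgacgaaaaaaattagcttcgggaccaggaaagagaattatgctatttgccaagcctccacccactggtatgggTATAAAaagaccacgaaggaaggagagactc
Krtap19-3: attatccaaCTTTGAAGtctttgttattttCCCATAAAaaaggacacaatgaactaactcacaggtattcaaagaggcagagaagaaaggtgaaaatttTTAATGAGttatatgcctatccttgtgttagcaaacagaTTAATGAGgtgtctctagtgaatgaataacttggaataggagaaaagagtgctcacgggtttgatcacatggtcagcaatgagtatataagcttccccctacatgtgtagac
Krtap16-3: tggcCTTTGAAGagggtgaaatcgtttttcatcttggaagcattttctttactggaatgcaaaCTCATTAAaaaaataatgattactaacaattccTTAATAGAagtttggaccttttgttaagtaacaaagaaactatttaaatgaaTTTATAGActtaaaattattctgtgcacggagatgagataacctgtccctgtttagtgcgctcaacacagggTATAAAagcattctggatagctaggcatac
Krtap6-1: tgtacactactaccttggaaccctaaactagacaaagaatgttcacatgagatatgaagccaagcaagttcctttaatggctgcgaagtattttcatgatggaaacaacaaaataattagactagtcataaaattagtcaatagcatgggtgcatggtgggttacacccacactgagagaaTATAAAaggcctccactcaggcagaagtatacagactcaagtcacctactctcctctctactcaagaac
Krtap20-2: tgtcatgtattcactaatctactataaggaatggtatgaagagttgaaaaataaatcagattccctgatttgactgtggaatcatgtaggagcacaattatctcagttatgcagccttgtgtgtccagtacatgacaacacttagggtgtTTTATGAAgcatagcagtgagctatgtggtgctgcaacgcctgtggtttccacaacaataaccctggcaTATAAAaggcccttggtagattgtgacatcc
Krt71 lies at chr15:101743098-101743347 on the minus strand. Krt31 lies at chr11:100050552-100050801 and Krt34 at chr11:100041555-100041804, both on the minus strand. Krtap19-3 lies at chr16:88878039-88878288 and Krtap16-3 at chr16:88962874-88963123, both on the minus strand. Krtap6-1 lies at chr16:89031449-89031698 and Krtap20-2 at chr16:89205611-89205860, both on the plus strand. Krt31, Krt34, Krtap19-3 and Krtap16-3 have a CTTTGAAG that begins between positions -246 and -240, counted from -1 at the last base before the start site, and each has a HOXC13 match that begins between -158 and -151. The promoters of Krtap8-1, Krt25 and Krtap3-1 were also read and are not shown. CTTTGAAG was absent from all of them, and Krtap8-1 had no HOXC13 match.

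TATAAA stood in 45 of the 58 member promoters matched in RefSeq (77.6%), against 8.12% of 27025 promoters of the same length. CTTTGAAG stood in 9 of 58 (15.5%), against 1.5% of all. It was found in 3 of 4 type I shaft keratin promoters, in 4 of 13 high-sulfur promoters, in 2 of 13 high glycine-tyrosine promoters and in 0 of 16 ultrahigh-sulfur promoters. The HOXC13 consensus was searched in 8 forms, TTAATNAA, TTAATNAG, TTAATNGA, TTAATNGG, TTTATNAA, TTTATNAG, TTTATNGA and TTTATNGG. It stood in 33 of 58 (56.9%), against 17.7% of all. Some opposite-strand matches share bases with TATAAA, as in Krt31, and with those left out it stood in 28 of 58 (48.3%), against 16% of all. The motifs were chosen after the sequences were seen, and a match describes letters, not binding.

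The high glycine-tyrosine proteins, small proteins of the cortex, held the most abundant keratin-associated genes. On the log2(RPKM + 1) scale, all hair genes at least 2-fold lower in the old than the young female library were in this class. Krtap8-1 (chr16:89487374-89487952 on mm10) had 696 RPKM in the old female and 721 RPKM in the young female library, and 639.7 RPKM in the old male and 728 RPKM in the young male library. Krtap7-1 had 427 RPKM in the old female and 505 RPKM in the young female library, and 422 RPKM in the old male and 474 RPKM in the young male library. These were the most abundant and differed little between libraries. Their codons for glycine and tyrosine made up 47.5% of codons in Krtap8-1 and 29.9% in Krtap7-1, the lowest shares in the class, against up to 69.2% in Krtap6-1.

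The 5 Krtap19 genes and 2 Krtap16 genes, which lie next to each other on chromosome 16, were all highest in the young female library, against 28.6% of all genes. Mouse Krtap16 genes are known as genes controlled by Hoxc13. Krtap16-3 had 142 RPKM in the old female and 220.4 RPKM in the young female library, and 151 RPKM in the old male and 133 RPKM in the young male library. Krtap19-3 had 145 RPKM in the old female and 214 RPKM in the young female library, and 159 RPKM in the old male and 139.6 RPKM in the young male library. Krtap19-9b had 138 RPKM in the old female and 224 RPKM in the young female library, and 171 RPKM in the old male and 163 RPKM in the young male library. For these genes the old female and both male libraries lay close together, and the young female library stood above them. Krtap19-5 had 129 RPKM in the old female and 211 RPKM in the young female library, and 137 RPKM in the old male and 129 RPKM in the young male library. Krtap19-4 had 98.3 RPKM in the old female and 137 RPKM in the young female library, and 82.8 RPKM in the old male and 81 RPKM in the young male library. Krtap19-1, the lowest of the family, had 44.6 RPKM in the old female and 60 RPKM in the young female library, and 46.6 RPKM in the old male and 34.8 RPKM in the young male library. Of the 7 genes, 5 were lowest in the young male library, against 16% of all genes. The other 2, Krtap19-9b and Krtap19-5, were lowest in the old female library, against 27.1%. The entry named Krtap16-1 (chr16:88873665-88874269 on mm10) had 92.4 RPKM in the old female and 124 RPKM in the young female library, and 86.6 RPKM in the old male and 75.7 RPKM in the young male library, and it lies over the gene that GENCODE names Krtap19-2. Summed over the 7, the level was 789 RPKM in the old female library, against 1190.2 RPKM in the young female library, and 834 RPKM in the old male and 756 RPKM in the young male library.

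The Krtap6 and Krtap22 genes were highest in the young female library and lowest in the old female library, with both male libraries between. Over all genes, 28.6% were highest in the young female library and 27.1% were lowest in the old female library. Krtap22-2 had 159 RPKM in the old female and 309 RPKM in the young female library, and 215 RPKM in the old male and 224 RPKM in the young male library. Krtap6-1 (chr16:89031699-89032292 on mm10), of a family known from sheep wool cortex, had 86.1 RPKM in the old female and 181 RPKM in the young female library, and 117 RPKM in the old male and 131 RPKM in the young male library. Krtap6-5 (chr16:89047289-89047899 on mm10) had 90.3 RPKM in the old female and 189 RPKM in the young female library, and 131 RPKM in the old male and 141 RPKM in the young male library. In each of these 3 genes the young female library stood alone at the top, above both male libraries. Krtap6-2 had 104 RPKM in the old female and 159 RPKM in the young female library, and 157 RPKM in the old male and 143 RPKM in the young male library. Summed over these 4 genes, the level was 439 RPKM in the old female library, against 838 RPKM in the young female library, and 620.3 RPKM in the old male and 639 RPKM in the young male library. Krtap6-1 shares 28.3% and Krtap6-5 19.0% of 50-base words with other transcripts, among them each other.

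Krtap20-2 (chr16:89205861-89206394 on mm10) had the widest spread of the 66 genes, with 1.17 RPKM in the old female and 15.3 RPKM in the young female library, and 6.66 RPKM in the old male and 9.03 RPKM in the young male library. Krtap21-1 had 118 RPKM in the old female and 138 RPKM in the young female library, and 162 RPKM in the old male and 149 RPKM in the young male library, and it was one of the 2 members of the class that were not highest in the young female library, the other being Krtap8-1. The young female library was highest for 13 of the 15 genes of the class, against 28.6% of all genes. This count was also 13 without the old female library, against 34.5%.

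The high-sulfur proteins were led by Krtap3-1 with 271 RPKM in the old female and 252 RPKM in the young female library, and 256 RPKM in the old male and 295 RPKM in the young male library. Krtap3-3 had 117 RPKM in the old female and 130.2 RPKM in the young female library, and 136 RPKM in the old male and 132 RPKM in the young male library. Krtap3-2 had 64.6 RPKM in the old female and 72.8 RPKM in the young female library, and 80.5 RPKM in the old male and 79.5 RPKM in the young male library. The Krtap3 genes varied little, and Krtap3-3 shares 41.3% and Krtap3-2 28.9% of 50-base words with other transcripts. Krtap1-5 had 172 RPKM in the old female and 232 RPKM in the young female library, and 178 RPKM in the old male and 195 RPKM in the young male library. Krtap1-3 had 61.6 RPKM in the old female and 45.3 RPKM in the young female library, and 73.8 RPKM in the old male and 78.7 RPKM in the young male library. Krtap1-4 (chr11:99582549-99583677 on mm10) had 56.1 RPKM in the old female and 32.9 RPKM in the young female library, and 66.2 RPKM in the old male and 72.3 RPKM in the young male library. Within the Krtap1 family, Krtap1-5 was highest in the young female library, where Krtap1-3 and Krtap1-4 were lowest. Krtap2-4 had 60.3 RPKM in the old female and 68.2 RPKM in the young female library, and 72.6 RPKM in the old male and 74.3 RPKM in the young male library, and it shares 43.8% of 50-base words with unnamed relatives.

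High-sulfur genes on chromosome 16 also varied little. Krtap15 had 281 RPKM in the old female and 247 RPKM in the young female library, and 215 RPKM in the old male and 235 RPKM in the young male library. Krtap14, which overlaps the Krtap15 annotation, had 159.9 RPKM in the old female and 143 RPKM in the young female library, and 126 RPKM in the old male and 134 RPKM in the young male library. Krtap11-1 had 148 RPKM in the old female and 133 RPKM in the young female library, and 133 RPKM in the old male and 152 RPKM in the young male library. Krtap14 and Krtap15 were highest in the old female library and lowest in the old male library. Krtap13-1 had 104 RPKM in the old female and 98.5 RPKM in the young female library, and 108 RPKM in the old male and 102 RPKM in the young male library. Krtap26-1 had 29.6 RPKM in the old female and 28.6 RPKM in the young female library, and 36.1 RPKM in the old male and 38.7 RPKM in the young male library. Krtap24-1 had 11.5 RPKM in the old female and 9.6 RPKM in the young female library, and 12.9 RPKM in the old male and 13.5 RPKM in the young male library. Krtap27-1 was the lowest of the class, with 7.74 RPKM in the old female and 6.76 RPKM in the young female library, and 6.33 RPKM in the old male and 7.37 RPKM in the young male library. Krtap26-1 and Krtap24-1 were higher in both male than in both female libraries.

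The ultrahigh-sulfur proteins are rich in cysteine codons, 27.2% to 41.5% of all codons, a range that overlaps with the high-sulfur class, where Krtap1-3 has 30.6% and Krtap2-4 29.8%, and with Krtap10-10, at 30.4%. The share was 1.72% to 2.24% in sheath keratins and 2.49% to 7.69% in shaft keratins. Krtap9-3, the most abundant, had 154 RPKM in the old female and 165 RPKM in the young female library, and 167 RPKM in the old male and 159 RPKM in the young male library. Krtap4-1 had 92.5 RPKM in the old female and 107 RPKM in the young female library, and 112 RPKM in the old male and 131 RPKM in the young male library. Krtap4-7 had 76.5 RPKM in the old female and 78.1 RPKM in the young female library, and 86 RPKM in the old male and 96.2 RPKM in the young male library. All 8 Krtap4 genes were highest in the young male library, against 11.6% of all genes, or 38% without the old female library. Krtap4-2 had 57.2 RPKM in the old female and 63.5 RPKM in the young female library, and 68.8 RPKM in the old male and 79.3 RPKM in the young male library. Krtap4-6 had 53.5 RPKM in the old female and 52.8 RPKM in the young female library, and 58.4 RPKM in the old male and 64.8 RPKM in the young male library. Krtap4-16 had 46.9 RPKM in the old female and 38.7 RPKM in the young female library, and 51.5 RPKM in the old male and 60.1 RPKM in the young male library. These had male libraries above female libraries throughout, with narrow gaps. Krtap4-8 (chr11:99780014-99780643 on mm10) had 33.2 RPKM in the old female and 19.8 RPKM in the young female library, and 37.3 RPKM in the old male and 46.2 RPKM in the young male library. Krtap4-9 (chr11:99785200-99786257 on mm10) had 28 RPKM in the old female and 17.7 RPKM in the young female library, and 37.5 RPKM in the old male and 43 RPKM in the young male library. Krtap4-13 had 5.17 RPKM in the old female and 2.48 RPKM in the young female library, and 5.69 RPKM in the old male and 5.94 RPKM in the young male library. These 3 neighbours on chromosome 11 were lowest in the young female library and highest in the young male library. Krtap4-13 shares 81.3%, Krtap4-8 33.4% and Krtap4-9 17.1% of 50-base words with other transcripts, among them each other, so their levels are uncertain.

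Krtap17-1, a cuticle protein in human hair, had 43.3 RPKM in the old female and 50.6 RPKM in the young female library, and 52.2 RPKM in the old male and 58.1 RPKM in the young male library. Krtap9-1 had 36.8 RPKM in the old female and 26.3 RPKM in the young female library, and 33.7 RPKM in the old male and 38.7 RPKM in the young male library. The 5 Krtap5 genes lie on chromosome 7 and encode cuticle proteins. Krtap5-5 had 15.3 RPKM in the old female and 15.4 RPKM in the young female library, and 17.4 RPKM in the old male and 17.3 RPKM in the young male library. Krtap5-4 had 8.82 RPKM in the old female and 8.13 RPKM in the young female library, and 10.2 RPKM in the old male and 10.6 RPKM in the young male library. Krtap5-2 had 8.07 RPKM in the old female and 6.24 RPKM in the young female library, and 10 RPKM in the old male and 9 RPKM in the young male library. Male libraries were above female libraries in these 3 genes. Krtap5-3 had 3.74 RPKM in the old female and 2.41 RPKM in the young female library, and 3.71 RPKM in the old male and 4.35 RPKM in the young male library. Krtap5-1 had 3.15 RPKM in the old female and 2.48 RPKM in the young female library, and 2.78 RPKM in the old male and 3.42 RPKM in the young male library. Krtap5-1 shares 60.6% of its 50-base words with other transcripts, Krtap9-1 36.6%, Krtap5-5 36.3% and Krtap5-2 28.6%, so their levels are uncertain. Of the 16 analysed genes of the class, 13 were highest in the young male library, against 11.6% of all genes, and 10 lowest in the young female library, against 35.3%. Without the old female library these counts were 13, against 38%, and 15, against 37.6%.

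The 3 genes on chromosome 10, of the Krtap10 and Krtap12 families known from the human hair cuticle, lie within Tspear. Krtap10-10 had 14.5 RPKM in the old female and 17.4 RPKM in the young female library, and 22.6 RPKM in the old male and 22.3 RPKM in the young male library. Krtap10-4 had 12.6 RPKM in the old female and 12.6 RPKM in the young female library, and 15.8 RPKM in the old male and 16 RPKM in the young male library. Krtap12-1 had 12 RPKM in the old female and 12.2 RPKM in the young female library, and 15.4 RPKM in the old male and 17.5 RPKM in the young male library. In each of them both male libraries exceeded both female libraries. Krtap10-10 shares 44.4% and Krtap10-4 42% of 50-base words with other transcripts, so their levels are uncertain. The 3 genes under the filter were near the lowest value listed, 0.13 RPKM. Krtap9-5 had 0.211 RPKM in the old female and 0.137 RPKM in the young female library, and 0.192 RPKM in the old male and 0.146 RPKM in the young male library. Krtap31-1 and Krtap31-2 were not listed in the young male library. Krtap31-1 had 0.497 RPKM in the old female and 0.173 RPKM in the young female library, and 0.307 RPKM in the old male library. Krtap31-2 had 0.516 RPKM in the old female and 0.154 RPKM in the young female library, and 0.245 RPKM in the old male library.

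**Figure D2:**
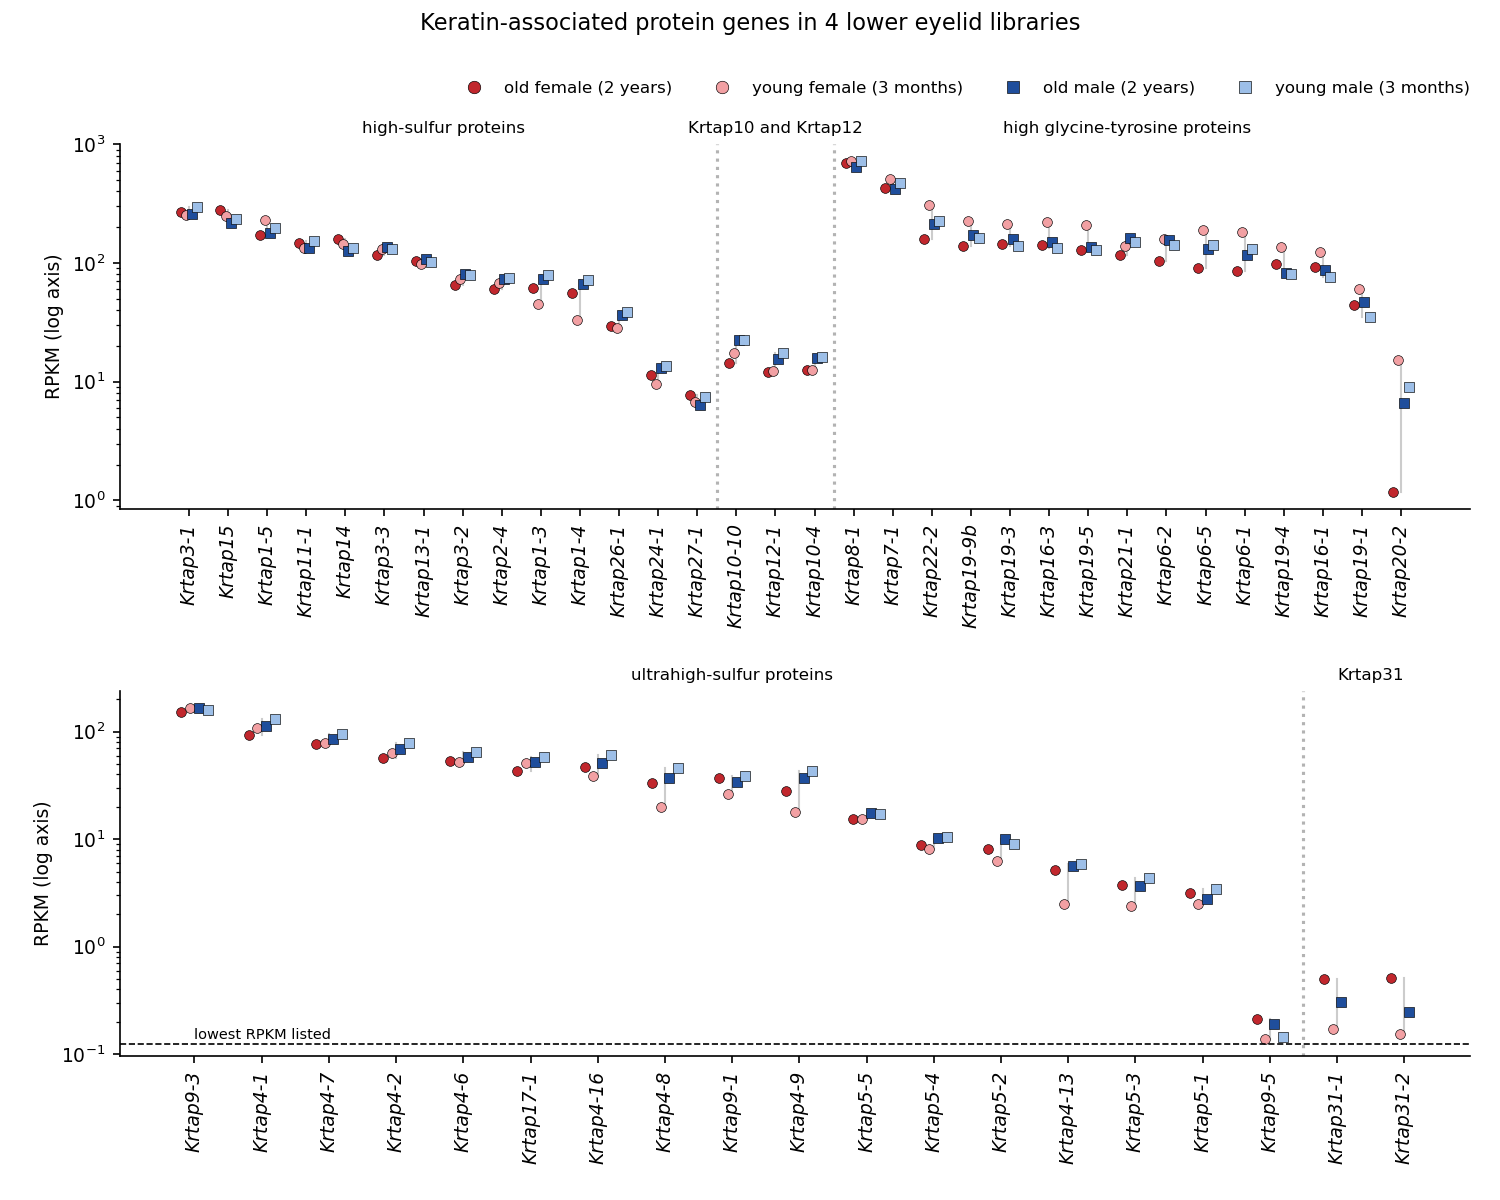
RPKM of the 51 keratin-associated protein genes in the 4 libraries, on log axes, with 1 point per library, grey lines from lowest to highest and dotted lines between classes. In the high glycine-tyrosine class the young female library is highest for 13 of 15 genes, and in the ultrahigh-sulfur class the young male library is highest for 13 of the 16 analysed genes.

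Age in females compares the old female with the young female library. Of the 66 hair genes, 0 were higher by 2-fold or more in the old female library, against a background of 5.33% of 12094 genes, and 3 were lower by that much, against 3.37%. These were Krtap20-2 with a log2 ratio of -2.91, Krtap6-1 with -1.06 and Krtap6-5 with -1.06, all of the high glycine-tyrosine class. Krtap22-2, at -0.96, lay just inside the limit. With a pseudocount of 0.1 in place of 1, Krtap4-13 was 2-fold higher in the old female library, so the count of 0 depends on the pseudocount. The median log2 ratio was 0.01 over the 66 hair genes, against 0.07 over all genes. All 15 genes of the glycine-tyrosine class were lower in the old female library, with a median of -0.61, and 14 were so after quantile normalization. The 18 keratins had a median of 0.06, and 13 (72.2%) were higher in the old female library, against 59.1% of all genes. That count was 8 when all libraries were scaled to the same median, so the sign of the keratin group depends on scaling. The ultrahigh-sulfur class had a median of 0.18 and the high-sulfur class one of 0.13. The largest positive ratios were 0.83 for Krtap4-13, 0.75 for Krtap1-4 and 0.72 for Krtap4-8.

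Age in males compares the old male with the young male library. A total of 0 of 66 hair genes were 2-fold apart in either direction, against 0.827% of all genes higher and 0.215% lower in the old male library. The median log2 ratio was -0.11 over the 66 hair genes and -0.01 over all genes. All 18 keratins had a ratio below 0, whereas 47% of all genes were above 0. The keratin ratios lay between -0.56 for Krt84 and -0.02 for Krt28, Krt35 and Krt25, with a median of -0.16. The keratin-associated genes had a median of -0.10, and 32 of 48 were below 0. The glycine-tyrosine class had 9 of 15 above 0 and a median of 0.07, with Krtap19-1 at 0.41 as its highest.

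**Figure D3:**
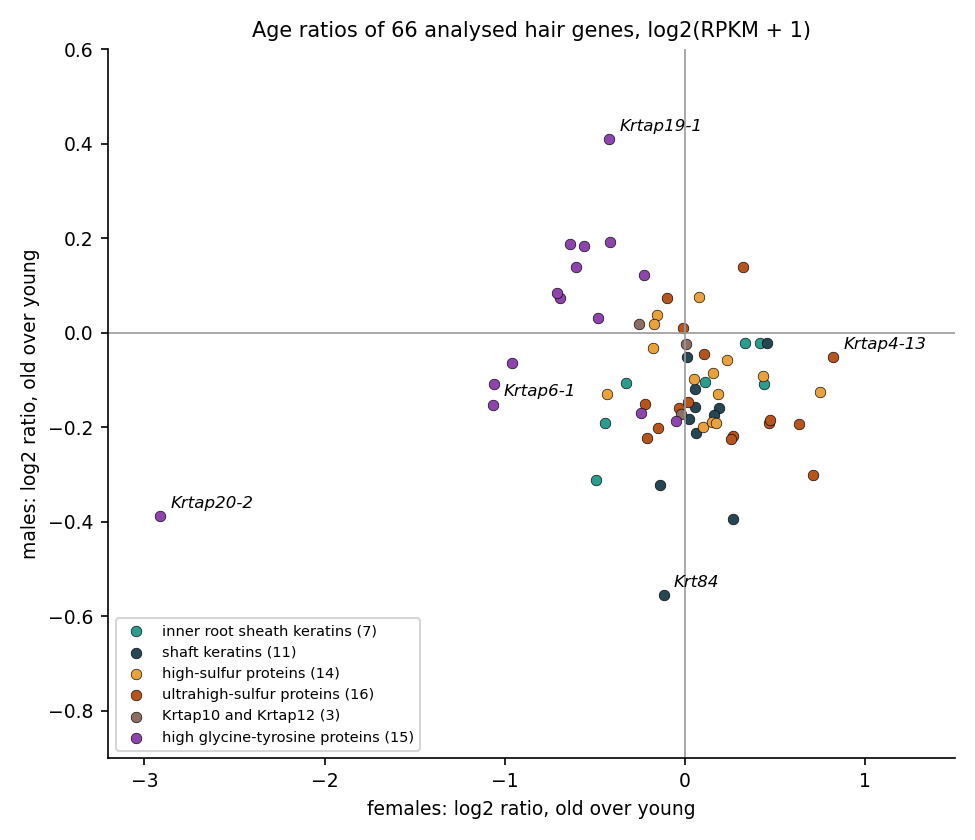
Log2 ratios of old over young for the 66 analysed genes, in females on the x axis and in males on the y axis, colored by class. All 15 glycine-tyrosine genes lie left of 0 on the female axis, with Krtap20-2 at -2.91, while all 18 keratins lie below 0 on the male axis.

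In gene order on chromosome 16, the low female ratios were next to each other. The 13 analysed genes from Krtap19-1 to Krtap6-2 had female log2 ratios between -2.91 and -0.23, whereas the other 9 on the chromosome had ratios between -0.24 and 0.23, with 2 of them below 0. These 2, Krtap8-1 at -0.05 and Krtap7-1 at -0.24, are the members of the glycine-tyrosine class on the chromosome outside the stretch. The stretch was delimited after the values were seen. The genes of this stretch all belong to the glycine-tyrosine class, so position and class cannot be told apart within it. Across the 47 analysed keratin-associated genes with codon data, the female age ratio had a Pearson correlation of -0.67 with the share of glycine and tyrosine codons (Spearman -0.57). The male age ratio had a correlation of 0.39 (Spearman 0.33). These are across genes, which share the same libraries and in part the same sequence, and other features correlated with the female ratio as well. The correlation was 0.47 for the length of the transcript (Spearman 0.55) and 0.44 for the share of cysteine codons (Spearman 0.50). For the ratio of young male over young female, the correlations were larger in size. They were -0.74 for glycine and tyrosine codons (Spearman -0.70), 0.70 for cysteine codons (Spearman 0.73) and 0.58 for transcript length (Spearman 0.66). The young female library enters both this ratio and the female age ratio.

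**Figure D4:**
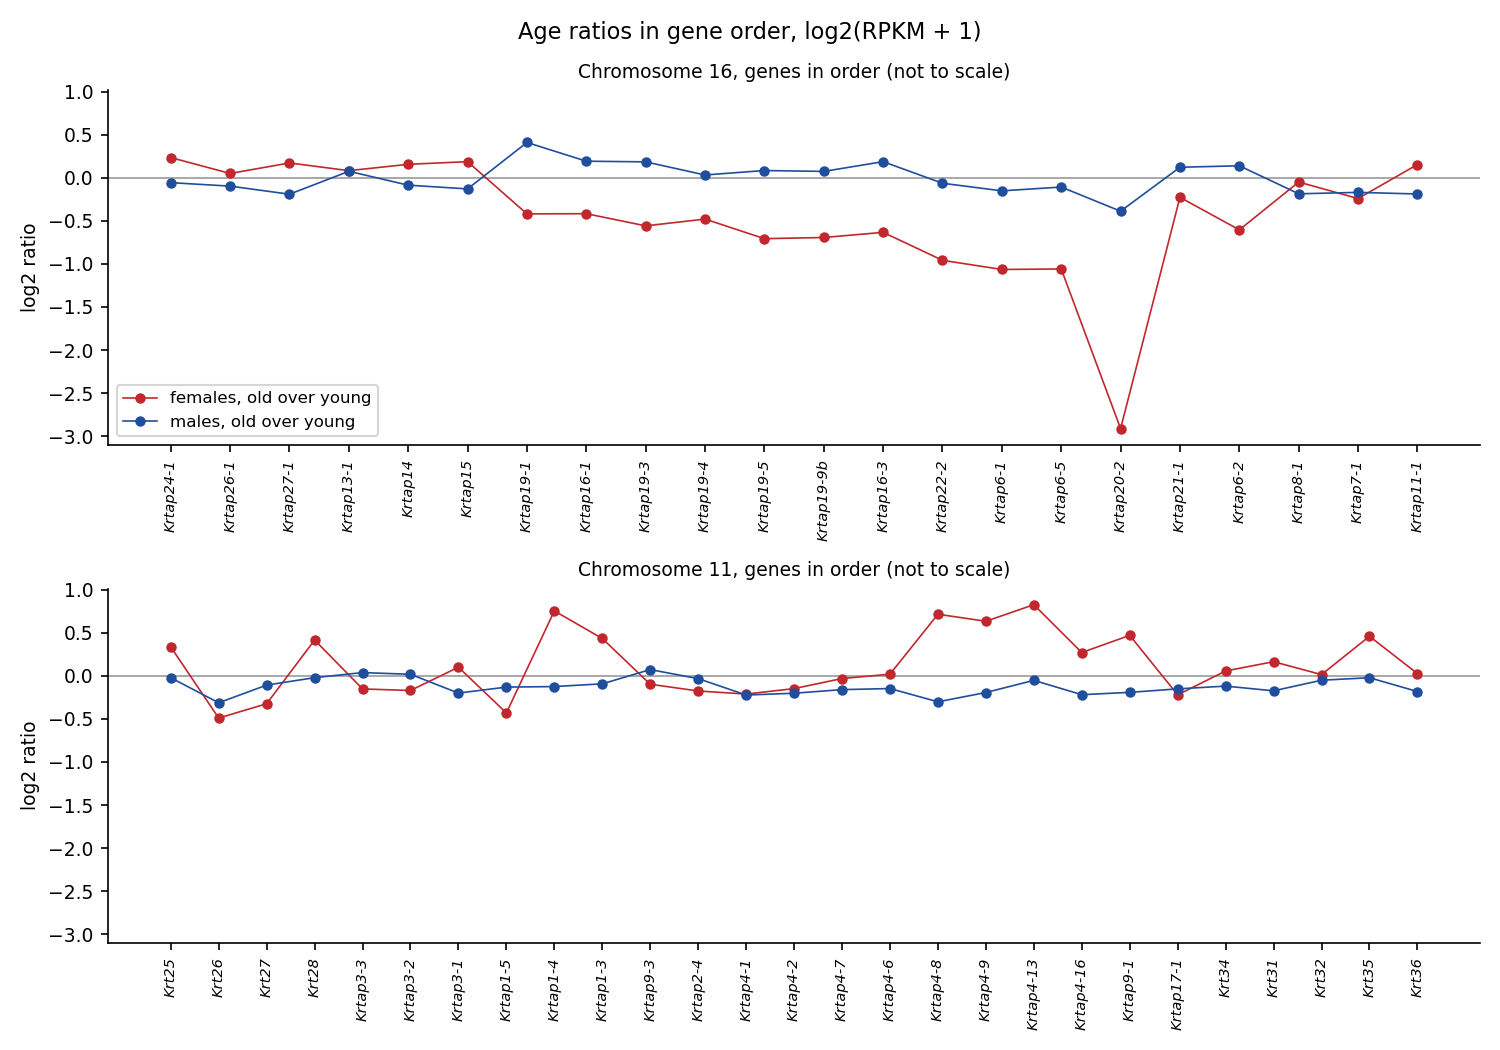
Log2 ratios of old over young for analysed hair genes in their order along chromosomes 16 and 11, in females (red) and males (blue), not to scale. On chromosome 16, the female ratios of the 13 genes from Krtap19-1 to Krtap6-2 lie between -2.91 and -0.23.

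**Figure D5:**
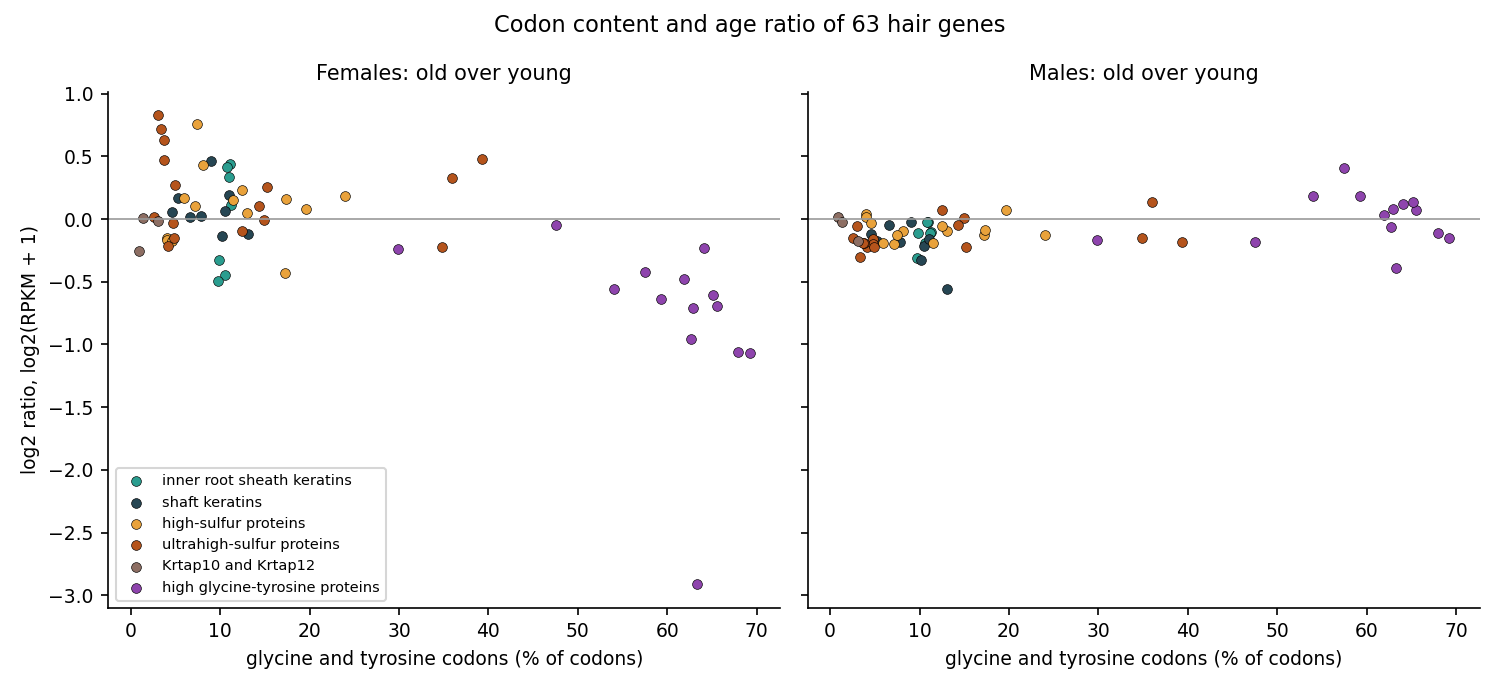
Log2 ratio of old over young against the share of glycine and tyrosine codons for 63 hair genes with codon data, in females (left) and males (right), colored by class. In females, the glycine-tyrosine genes at the right of the axis lie below 0, and in males they scatter around it.

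Sex at 3 months compares the young male with the young female library. Of the 66 genes, 4 were higher in the young male library by 2-fold or more, against 0.976% of all genes, and 0 were 2-fold lower, against 0.364%. These were Krtap4-9 at 1.23, Krtap4-8 at 1.18, Krt84 at 1.15 and Krtap1-4 at 1.11. Krtap4-13, with 5.94 RPKM in the young male and 2.48 RPKM in the young female library, lay just under the limit on the log2(RPKM + 1) scale and past it, at 1.23, with a pseudocount of 0.1. Krt84 had 18.1 RPKM in the young male library, against 7.64 RPKM in the young female library, and Krtap4-9 had 43 RPKM in the young male library, against 17.7 RPKM in the young female library. All 18 keratins were higher in the young male library, against 52.5% of all genes, with a median log2 ratio of 0.35, against 0.01 over all genes. The glycine-tyrosine class had the opposite sign, with 13 of 15 lower in the young male library and a median of -0.47. Each young library also enters a comparison by age, so the values of these comparisons are not independent.

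Sex at 2 years compares the old male with the old female library. A total of 1 of 66 genes was at least 2-fold higher in the old male library, against 1.98%, and 0 were lower, against 1.78%. This was Krtap20-2, with 6.66 RPKM in the old male and 1.17 RPKM in the old female library, a log2 ratio of 1.82. The median log2 ratio was 0.13 over the 66 genes and -0.07 over all genes. The 18 keratins had 12 genes above 0 (66.7%), against 39.4% of all genes, and a median of 0.06. Of the glycine-tyrosine class, 11 of 15 were higher in the old male library, with a median of 0.13.

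Averaged over the other factor, no gene passed in limma at an adjusted p below 0.05, neither for age (0% of 12094, lowest adjusted p 1.0, 355 genes at an unadjusted p below 0.05) nor for sex (0%, lowest adjusted p 0.156, 74 genes). Of the hair genes, 0 reached an unadjusted p below 0.05 for age and 2 did for sex. Krt84 differed by 0.93 ± 0.20 (SE) on the log2 scale, males over females, with a limma p of 0.00998 and an adjusted p of 1.0. Krtap4-9 differed by 0.82 ± 0.28 (SE), with a limma p of 0.0447 and an adjusted p of 1.0. The fit has 1 residual degree of freedom. With 1 library per group, that residual holds only how far a gene's old over young ratio in females departs from that in males. In limma it is combined with the trend of variance on intensity across the 12094 genes. A gene whose ratios in females and males lie apart is thus given a larger error. No p-value here rests on replicates within a group, and a p that misses the threshold does not show that values did not differ.

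The authors' deposited table of age comparisons in females lists Krtap20-2 as lower at 2 years with a fold of -13.1, where a negative fold means lower at 2 years. It lists Krtap4-13 with a fold of 2.08, Krtap31-1 with 2.88 and Krtap31-2 with 3.36 as higher. The authors' deposited table in males lists Krtap31-1 with a fold of 6.34 and Krtap31-2 with 9.75 as higher at 2 years, from young male values of 0.0485 and 0.0252 RPKM, below the floor of the expressed gene tables. Krtap6-1 and Krtap6-5 are not in these tables.

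Other follicle genes were read from lists of hair keratins outside the 18, shaft and sheath proteins and transcription factors. Of the 6 listed hair keratins outside the 18, none was 2-fold apart by age in either sex, and Krt33a, the highest, had 142 RPKM in the old female and 140.1 RPKM in the young female library, and 136 RPKM in the old male and 162 RPKM in the young male library. Krt33b had 123 RPKM in the old female and 128 RPKM in the young female library, and 121 RPKM in the old male and 141 RPKM in the young male library. Of 10 proteins of the shaft and sheath, Prr9, a proline-rich protein of the cornifying layers, had 403 RPKM in the old female and 444 RPKM in the young female library, and 417 RPKM in the old male and 453 RPKM in the young male library. Trichohyalin (Tchh), which hardens the sheath, had 329.9 RPKM in the old female and 318 RPKM in the young female library, and 314 RPKM in the old male and 426 RPKM in the young male library. Neither was 2-fold apart by age. None of the 12 analysed follicle transcription factors was 2-fold apart by age, and Foxq1 and Ovol1 had the highest means. Foxq1 had 29.5 RPKM in the old female and 38.9 RPKM in the young female library, and 35.1 RPKM in the old male and 37.9 RPKM in the young male library. Ovol1 had 21.4 RPKM in the old female and 34.4 RPKM in the young female library, and 29.6 RPKM in the old male and 29.7 RPKM in the young male library. Hoxc13, named after its values were seen because of the promoter motif, had 11 RPKM in the old female and 8.77 RPKM in the young female library, and 10.4 RPKM in the old male and 11.2 RPKM in the young male library. Lef1, named in the same way, had 3.25 RPKM in the old female and 1.81 RPKM in the young female library. In males it had 2.66 RPKM in the old and 2.92 RPKM in the young library.

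Cells around the shaft were read from marker lists. All 7 analysed melanocyte markers were lower in the old library in females and in males. Over all genes, 59.1% were higher in the old library in females and 47% in males. The 8 listed melanocyte markers summed to 73.6 RPKM in the old female and 115 RPKM in the young female library. Their sum was 78.9 RPKM in the old male and 106 RPKM in the young male library. Mlana, a melanosome protein, had 6.59 RPKM in the old female and 13.5 RPKM in the young female library, and 8.46 RPKM in the old male and 11.2 RPKM in the young male library. On the log2(RPKM + 1) scale its ratio in females was -0.94, and no analysed melanocyte gene was 2-fold apart on that scale. Mc1r, the melanocortin receptor, named like Mlana after its values were seen, was under the filter, with 0.534 RPKM in the old female and 1.07 RPKM in the young female library, and 0.795 RPKM in the old male and 0.912 RPKM in the young male library. The 8 dermal papilla markers summed to 23.1 RPKM in the old female and 6.47 RPKM in the young female library. In males their sum was 15.6 RPKM at 2 years and 7.20 RPKM at 3 months. Corin and Rspo3 were not listed in the young female library. Sox2 alone of the 8 went the other way in females, with 2.06 RPKM at 2 years and 2.64 RPKM at 3 months. In males Sox2 had 5.76 RPKM at 2 years and 2.41 RPKM at 3 months. The 10 proliferation markers summed to 86.5 RPKM in the old female and 69.9 RPKM in the young female library, and 77.7 RPKM in the old male and 75.0 RPKM in the young male library. Of the 7 analysed markers of outer root sheath and follicle stem cells, 6 were higher in the old female library, against 59.1% of all genes. Among the 6 markers, Cd34 had 15 RPKM in the old female and 4.19 RPKM in the young female library. Krt15 went the other way, with 2327 RPKM in the old female and 7744 RPKM in the young female library. In males, 4 of these 7 were higher in the old library, against 47% of all genes. The part of these differences in the hair gene values was not tested.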

How the data were processed

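RNA was measured in 4 lower eyelid libraries, 1 per age and sex. Per the labels' protocols, lids were frozen and RNA was extracted on columns and made into libraries by Illumina protocols. TopHat, Cufflinks and mm10 are named in the submitters' processing notes, with no version. Not given in the sources used here are how reads were counted, on which strand and over which gene models. The RPKM values deposited by the authors list genes from 0.13 RPKM, and a missing gene was set to 0. The second value column, read as base coverage, was deposited by the authors and sums to 3.16 to 3.91 gigabases per library, so read depth is unknown and no count test was run. The fold score, the p-value and both RPKM values of the comparison tables are the authors', deposited with a program named Cyber-T per the file names; which values that test used is not stated.

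Values were put on a log2(RPKM + 1) scale for genes with a mean of at least 1 RPKM, and 2 symbols that stood more than once were left out. Genes at least 2-fold apart were counted. One limma 3.58.1 model in R 4.3.3 across all 12094 genes held age and sex as terms, with a trend of variance on intensity and p-values adjusted by Benjamini-Hochberg at 0.05. The script was tested on simulated data. Positions were compared with GENCODE M21 on the same build, which held 66 of the 69 genes under the same symbol. Codon shares come from its coding sequences, and shared sequence was counted in 50-base words. Alternatives were a pseudocount of 0.1 or 5, no filter, a minimum mean of 5 RPKM, scaling to the same median, quantile normalization, no trend, the compared factor alone and each library left out. Every keratin was named, and every keratin-associated gene with a mean of at least 1 RPKM, as were the 2 highest genes of each list of other follicle genes and any of them at least 2-fold apart by age in both sexes. The members, lists and protein classes were chosen with earlier results of these data known.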

Additional observations from a re-analysis of the deposited data

Results flagged for a closer look

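Some members had age ratios of opposite sign in females and in males, and those with a female log2 ratio of at least 0.5 in size are given here. The difference between the sexes was not tested, since each sex has 1 library per age. Values are log2 ratios of old over young, and a difference is the female ratio minus the male ratio.

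Among the high-sulfur and ultrahigh-sulfur genes, 4 of these had a positive ratio in females and a negative one in males. Krtap4-8 had a ratio of 0.72 in females and -0.30 in males, a difference of 1.02. Krtap1-4 had a ratio of 0.75 in females and -0.12 in males, a difference of 0.88. Krtap4-13 had a ratio of 0.83 in females and -0.05 in males, a difference of 0.88. Krtap4-9 had a ratio of 0.63 in females and -0.19 in males, a difference of 0.83.

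In the glycine-tyrosine genes that met this rule the signs were the other way round. Krtap16-3 had a ratio of -0.63 in females and 0.19 in males, a difference of -0.82. Krtap19-5 had a ratio of -0.71 in females and 0.08 in males, a difference of -0.79. Krtap19-9b had a ratio of -0.69 in females and 0.07 in males, a difference of -0.77. Krtap6-2 had a ratio of -0.61 in females and 0.14 in males, a difference of -0.74. Krtap19-3 had a ratio of -0.56 in females and 0.18 in males, a difference of -0.74. The median of the 15 genes of the class was -0.61 in females and 0.07 in males, a difference of -0.68. Not all of the class changed sign, since 6 of the 15 were below 0 in males as well as in females. Krtap20-2, Krtap6-1, Krtap6-5 and Krtap22-2, which had the lowest female ratios, were among these 6.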

How the results depend on the processing

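Of 96 recomputed values of the member counts, the member medians and the limma counts, 91 stayed the same (a count within 1.5 times, a median within 0.1). Under a pseudocount of 5, 0 instead of 1 member was 2-fold apart by sex at 2 years, and Krtap20-2 then had a log2 ratio of 0.92; Krt84 had 0.87 by sex at 3 months. Under a pseudocount of 0.1, 4 instead of 3 members were 2-fold apart by age in females and 5 instead of 4 by sex at 3 months, the added gene being Krtap4-13 both times. In limma, leaving out each library in turn gave between 0 and 153 genes for age, 153 of them without the old male library, and between 0 and 25 for sex, 25 without the young female and 3 without the old female library. These fits hold the compared factor alone, and the group left with 1 library is assumed to vary like the other. Members passing numbered 0 throughout. Age and sex share the replicate number 1 only: with no replicate block, that is, with the compared factor alone, 0 genes passed for age and 3 for sex. Across the alternatives, the median female age ratio of the glycine-tyrosine class lay between -0.68 and -0.59, and that of all members between -0.06 and 0.02. Read depth is unknown, so low genes such as the Krtap31 family carry an error that cannot be given.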

Other observations

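Of 13 listed signals known to act in hair growth, 10 were analysed, and none of these was 2-fold apart by age on the log2(RPKM + 1) scale. Shh, a ligand of the hedgehog pathway, named with Fgf7 after their values were seen, came nearest, with 2.8 RPKM in the old female and 1.04 RPKM in the young female library, and 2.25 RPKM in the old male and 1.27 RPKM in the young male library. Its log2 ratio of old over young in females was 0.90 on that scale, which understates the ratio of such low values. Fgf7, a growth factor that was under the filter, had 1.32 RPKM in the old female and 0.242 RPKM in the young female library, and 0.609 RPKM in the old male and 0.22 RPKM in the young male library. Wnt10a, a Wnt ligand of the follicle, had 12.6 RPKM in the old female and 21.4 RPKM in the young female library, and 14.9 RPKM in the old male and 16.1 RPKM in the young male library. Sostdc1, a secreted Wnt and BMP inhibitor, had 15.5 RPKM in the old female and 12.7 RPKM in the young female library, and 9.11 RPKM in the old male and 12.0 RPKM in the young male library. Wnt10a was lower in the old library in both sexes, whereas Sostdc1 was higher in the old female and lower in the old male library.

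The gene annotated as Krt83 stands in the tables under the name 5430421N21Rik, which was looked up after its values were seen. It had 118 RPKM in the old female and 125 RPKM in the young female library, and 111 RPKM in the old male and 133 RPKM in the young male library. In the authors' deposited table of females, Krtap13 had 0.128 RPKM in the old and 0.0271 RPKM in the young library, below or near the lowest value listed for expressed genes.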
